A study of Mus musculus with 12 samples.

Results

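C2C12 cells treated with an siRNA against Fbxl2, at the 48 h time point, were compared with proliferating C2C12 myoblasts at 0 h. The comparison used 6 of the 12 libraries of the series, 3 in each group, which were chosen by their labels. All 12736 genes that passed a filter on low counts were tested, out of 21232 gene symbols in the deposited table. C2C12 is an established mouse myoblast line, and every library carried the strain label C57BL/6 and the passage range 5 to 10. Proliferating cells were kept in DMEM with fetal bovine serum. For differentiation, this medium was exchanged at near confluence for DMEM with horse serum at a lower concentration. The siRNA libraries differ in their labels from 3 control libraries, also at 48 h, by the siRNA alone, and these controls are set beside both groups below. The labels time the other treatment of the series, TNF, by hours of differentiation, and do not state the medium of each 48 h group. The sequence of the siRNA, the time at which it was added and whether any other group received a non-targeting siRNA were left unstated in the sources used here. Culture time and siRNA differed together between the siRNA group and the proliferating cells, along with any change of medium or confluence over those hours, and their parts cannot be told apart in this comparison. The title of the series concerns TNF, the factor SP1 and the Fbxl2 promoter in skeletal myogenesis. Total RNA went through an Illumina mRNA library preparation. The labels name no separate cultures, and p-values therefore cover just the variation among these libraries, possibly technical variation.

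When serum is withdrawn, myoblasts leave the cell cycle, switch on the transcription factor myogenin, fuse with their neighbours and then assemble sarcomeres, the contractile units of muscle. Fbxl2 encodes an F-box protein, the part of an SCF ubiquitin ligase that recognises the protein to be marked for degradation. Cyclins D2 and D3 have been described as proteins that it recognises.

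Library totals in the 6 libraries ran from 26416978 to 30435066 counts, so that 3 counts, used as a floor, were worth 0.0986 to 0.114 CPM (counts scaled to library size). Pearson correlations of log2 CPM between replicates of these groups lay between 0.9937 and 0.9957. Levels below are CPM scaled by TMM, given per library in the order A, B, C or as mean ± SD over n = 3 libraries. Changes are log2 fold changes of siRNA over proliferation with an approximate standard error (SE), and a gene was called higher or lower at an edgeR adjusted p under 0.05 over all genes tested. CPM values compare 1 gene between groups and not 1 gene with another, since they are not divided by length. siRNA library B stood somewhat apart, with a summed level of 5636 CPM over the sarcomere genes against 6450 and 6626 CPM in libraries A and C, and with 47182 CPM over the ribosomal protein genes against 41230 and 42774 CPM. Its values are given beside the results they touch.

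Fbxl2 (chromosome 9, 113963637 to 114046191, minus strand, GRCm38) was the targeted gene. It stood at 27.2, 26.7 and 24.0 CPM in the proliferating libraries, at 22.5, 20.6 and 23.6 CPM in the siRNA libraries and at 31.9, 32.6 and 34.4 CPM in control. Each siRNA library lay below each proliferating library, a log2 change of -0.22 (SE 0.07, adjusted p = 0.0055), and further below the control libraries (-0.57, SE 0.06). In fold terms it was 1.17-fold lower than in proliferation and 1.48-fold lower than in control (adjusted p = 1.67e-07).

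Between proliferation and siRNA, edgeR called 7899 of 12736 genes, or 62.0%. Of all genes tested, 3940 (30.9%) were higher and 3959 (31.1%) were lower with the siRNA, and every count of list members below is to be read against these shares. A change of at least 2-fold was called for 10.3% of genes, 1019 upward and 298 downward. The median log2 fold change over all genes was 0.0034 and the median absolute one 0.259. Control libraries, set against the same proliferating libraries, had a median absolute log2 fold change of 0.424, and 77.2% of genes were called (38.4% higher and 38.9% lower). Since both comparisons share the proliferating libraries, their values are given side by side, and differences between siRNA and control rest on the direct comparison of those 2 groups, in which 63.9% of genes were called (34.1% higher and 29.8% lower with the siRNA). In that direct comparison the direction with more calls depended on the scaling, with 3984 higher and 4140 lower under DESeq2 size factors. Tested against a fold of 1.5 with glmTreat, siRNA over proliferation kept 1660 calls (13.0%), 1143 higher (8.97%) and 517 lower (4.06%). The lists below were 28 of gene groups and 8 of cell type markers, with 957 genes in all, of which 864 were tested, 86 were under the filter and 7 were absent from the table.

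Most genes of muscle structure rose with the siRNA and lay below their control level. Myog (chromosome 1, 134289989 to 134292548, plus strand), the gene of myogenin, was at 25.2, 21.4 and 21.0 CPM in proliferating cells, at 113, 77.3 and 123 CPM with the siRNA and at 328, 289.7 and 289.7 CPM in control. The 3 groups did not overlap, and siRNA library B was the lowest of its group. Myog rose 4.61-fold over proliferation (log2 fold change 2.21, SE 0.19, adjusted p = 6.27e-06) and was 2.91-fold lower than in control (adjusted p = 3.3e-05). Myod1, the myogenic factor that acts upstream of myogenin, went the other way. Its levels were 73.5, 74.1 and 76.5 CPM in proliferation and 56.1, 52.0 and 57.2 CPM with the siRNA, a fall of 1.36-fold (adjusted p = 1.94e-07), whereas control libraries held 99.8, 98.6 and 93.2 CPM. Myod1 was thus lower with the siRNA than in either other group (adjusted p = 1.59e-11 against control).

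Of 13 myogenic transcription factors tested, 8 were higher and 3 lower (median log2 fold change 0.17), against 10 higher and 2 lower in control. Mef2c and Mef2a, partners of the MyoD family, rose by 1.24 (SE 0.17) and 0.41 (SE 0.05) on the log2 scale. Myf5, an early factor of the same family, rose slightly, from 53 ± 3.84 to 61.5 ± 2.43 CPM, and lay at 44.2 ± 0.616 CPM in control. Besides Myod1, the lower members were Eya1 and Six4, both developmental regulators of myogenic genes, at -0.29 and -0.20. They were picked out after their values were seen, because few members were lower. Pax7, the marker of muscle stem cells, made no call at 9.19 ± 0.166 CPM in proliferation and 9.06 ± 0.696 CPM with the siRNA (adjusted p = 0.845), while its control level was 19.2 ± 1.47 CPM. The other member without a call was Myf6 (-0.07, adjusted p = 0.866).

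Genes of myoblast fusion were split. Mymk, which encodes the fusion protein myomaker, had 6.68, 4.73 and 5.43 CPM in proliferation and 67.2, 46.6 and 73.2 CPM with the siRNA, an 11-fold rise (SE 0.22 on the log2 scale, adjusted p = 6.7e-07), and 188, 170.0 and 161 CPM in control. Mymx, the gene of its partner myomixer, had 1.28, 1.04 and 1.05 CPM in proliferation and 16.4, 13.4 and 17.8 CPM with the siRNA, a 14.0-fold rise (adjusted p = 3.89e-15), and 26.0, 23.5 and 23.2 CPM in control. For both genes the siRNA libraries lay between the other groups without overlap. Among 19 fusion genes tested, 11 were higher and 3 lower (median 0.24), with 13 higher and 5 lower in control. Elmo1, an adaptor of Rac signalling, rose 9.13-fold to 8.06 ± 1.05 CPM and exceeded its control level of 5.45 ± 0.484 CPM (adjusted p = 0.00129). The adhesion gene Jam2 fell from 321 ± 19.6 to 166 ± 1.62 CPM, beside 166 ± 3.13 CPM in control. Itga3 and Myof, which encode an integrin and myoferlin, were the other lower members, at -0.47 and -0.28, and were chosen for the same reason as Eya1.

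The sarcomere list had the highest median of the muscle lists. Of 58 genes tested, from 64 in the table, 51 were higher and 3 lower. Their median log2 fold change was 3.34, or 3.04 when 2 genes without any count in proliferating cells were set at their bounds. In control the counts were 53 higher and 4 lower with a median of 4.74. Directly compared, 52 of the 58 were lower with the siRNA than in control and 2 were higher. The number higher over proliferation was 46 against a fold of 1.5 and 50 to 52 with 1 library left out. The embryonic myosin gene Myh3 (chromosome 11, 67078300 to 67102291, plus strand) was at 7.50, 5.40 and 6.05 CPM in proliferation, 266, 164 and 284 CPM with the siRNA and 838, 691 and 681 CPM in control. Acta1, the skeletal actin gene, was at 14.9, 10.1 and 11.2 CPM, then 419.8, 313 and 474 CPM with the siRNA, with 996, 893 and 843 CPM in control. In both genes siRNA library B was lower than A and C, yet far above the proliferating libraries. Their rises were 37.5-fold (adjusted p = 7.59e-07) and 33.2-fold (adjusted p = 5.25e-08).

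**Figure D1:**
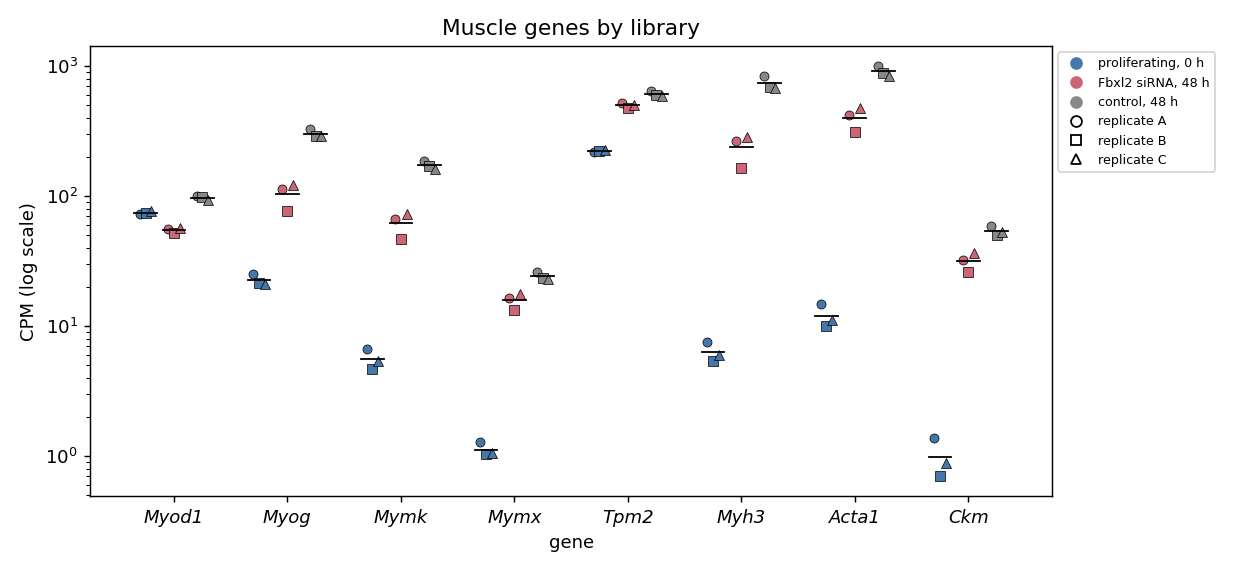
Levels of 8 muscle genes in each library, in CPM on a log scale, for proliferating cells (blue), Fbxl2 siRNA (red) and control (grey), with the group mean as a bar and the replicate letter as the marker shape. Except for Myod1, where the siRNA libraries are the lowest, the siRNA libraries lie between the other groups, and siRNA library B (square) is the lowest red point for all 8 genes.

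Tpm2, a tropomyosin gene, had the smallest p of the sarcomere list and rose 2.25-fold, from 222 ± 3.30 to 500.1 ± 21.0 CPM. Actn2, which encodes an actin crosslinker of the Z disc, rose from 0.214 ± 0.0750 to 6.29 ± 1.16 CPM (28.4-fold, with 19 counts in all over the proliferating libraries). Mybpc2 and Myl2, for a fast myosin-binding protein and a slow myosin light chain, had no count in proliferating cells and 0.945 ± 0.172 and 0.400 ± 0.214 CPM with the siRNA, which is at least 8.50-fold and 3.6-fold more, with 3 counts in each library as the floor. The 3 lower members, chosen after their values were seen, were Mylk2 (-1.35), Xirp2 (-0.38) and the non-muscle-restricted tropomyosin gene Tpm3 (-0.18). No call was made for Actn3 (-0.00), Nebl (0.06), Xirp1 (0.20) and Ttn (0.61). Ttn, the gene of the giant spring protein titin, varied widely, with 54.3, 22.1 and 27.2 CPM in proliferation and 64.9, 39.3 and 55.5 CPM with the siRNA (adjusted p = 0.149). In bulk RNA, fewer differentiated cells and less muscle RNA per cell cannot be told apart.

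Klhl40 (chromosome 9, 121777607 to 121783818, plus strand) encodes a stabiliser of thin filaments and was the second member of the list by p. It had 1.18, 0.968 and 1.05 CPM in proliferation, 5.75, 4.19 and 6.24 CPM with the siRNA and 16.5, 15.7 and 14.8 CPM in control, again without overlap, a rise of 2.32 (SE 0.17, adjusted p = 2.63e-10). Its promoter is shown because the muscle genes moved together and myogenic factors bind E-boxes. The window from RefSeq (chr9:121777357-121777656, plus strand, GRCm38.p6, 250 bases before to 50 after the start) has the E-box letters CAGCTG in capitals.
Klhl40: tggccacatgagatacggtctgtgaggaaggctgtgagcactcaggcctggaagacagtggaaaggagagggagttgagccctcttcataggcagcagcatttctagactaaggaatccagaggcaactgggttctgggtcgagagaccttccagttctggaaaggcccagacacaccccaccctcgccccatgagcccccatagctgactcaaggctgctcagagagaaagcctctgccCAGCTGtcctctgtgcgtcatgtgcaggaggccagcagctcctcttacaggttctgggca
The letters CAGCTG, which read the same on both strands, occurred in 38.6% of 57 such windows of the sarcomere list (47 of 58 genes matched) and in 9 of 18 windows of the calcium handling list, beside 16.3% of all 32851 windows of the RefSeq table and 16% of the 12399 windows of genes tested. The other muscle lists differed, with 39.3% for energy enzymes, 17.6% for fusion, 9.09% for the dystrophin complex and 7.69% for myogenic transcription factors. The share was 35.3% in the Notch pathway list. A match describes letters and not a bound site.

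Membrane and metabolic genes of muscle had smaller medians. Of 25 genes of calcium handling and the acetylcholine receptor, 19 were higher and 2 lower (median 0.75, with 1.55 in control). Cacna1s, the voltage sensor of the muscle membrane, rose 37.5-fold to 14.3 ± 3.62 CPM. Casq1, for the calcium store protein calsequestrin, rose 14.2-fold to 2.34 ± 0.553 CPM. The release channel gene Ryr3 rose 6.12-fold and Rapsn, which clusters acetylcholine receptors, 1.71-fold. Chrnd (-0.31), a receptor subunit gene, and Dok7 (-0.48), which activates the receptor-clustering kinase MuSK, were lower and were named for that after the fact. Of 19 energy enzymes, 10 were higher and 3 lower (median 0.12). The summed level of that list went down, from 2887 to 3067 CPM in proliferation to 2527 to 2864 CPM with the siRNA. In control it was 1857 to 1913 CPM. Muscle creatine kinase, Ckm, went from 1.38, 0.707 and 0.888 CPM in proliferation to 32.1, 25.9 and 36.8 CPM with the siRNA, beside 58.8, 50.2 and 52.8 CPM in control, a 31.3-fold rise (adjusted p = 1.42e-10) without overlap of groups. The brain isoform Ckb fell to 71.8 ± 2.46 CPM from 105 ± 2.52 CPM and lay at 129 ± 7.76 CPM in control. The enolase gene Eno3 (-0.87) and Ldha (-0.16), for lactate dehydrogenase, were the other lower members, and the latter was added after its value was seen. With DESeq2 size factors 8 energy enzymes were higher and 5 lower, and leaving out 1 library gave 7 to 9 higher. The oxygen carrier gene Mb rose 19.3-fold. In the dystrophin complex, 9 of 15 genes were higher and 2 lower (median 0.53), with Dag1, the dystroglycan gene, up 1.86-fold. The caveolin gene Cav3 had 2 counts over the proliferating libraries and 136 over the siRNA libraries. The lower members Sgcb and Sntb2, chosen after the fact, stood at -0.15 and -0.47, and 1 was left without siRNA replicate B or proliferation replicate B.

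Cell cycle genes were lower with the siRNA than in proliferating cells, and less so than in control. All 40 mitosis genes tested were lower. Their median log2 fold change was -0.66, in a range from -1.05 to -0.37, while the control median was -1.90. The same held for all 45 genes of DNA replication tested, whose median was -0.75, in a range from -1.05 to -0.31, against -1.54 in control. The 3 siRNA libraries lay below the 3 proliferating libraries for each of these genes, as was so for 31.8% of all genes tested. Against a fold of 1.5, 13 of the mitosis genes and 27 of the replication genes were still called. In the direct comparison, all 40 mitosis genes and 43 of 45 replication genes were higher with the siRNA than in control, with median differences of 1.22 and 0.74.

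Mki67, the gene of the proliferation antigen Ki-67, had 284, 252 and 268 CPM in proliferation, 185, 173 and 168 CPM with the siRNA and 85.6, 92.0 and 99.2 CPM in control. It fell 1.53-fold from proliferation (adjusted p = 1.86e-08) and stood 1.90-fold above control. The mitotic kinase gene Cdk1 went from 243 ± 24.7 to 153 ± 7.97 CPM, with 65.1 ± 3.76 CPM in control. Aurkb, the kinase of chromosome segregation, showed the same order, at 74.1 ± 4.92, 44.5 ± 1.92 and 18.3 ± 2.41 CPM. Bub1b of the spindle checkpoint fell 1.81-fold, the topoisomerase gene Top2a 1.82-fold and the spindle motor gene Kif11 1.89-fold.

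Ncapg (chromosome 5, 45669919 to 45700546, plus strand), a subunit of the condensin that compacts chromosomes, was the mitosis gene with both the smallest p and the largest fall. It had 140.0, 166 and 145 CPM in proliferation, 71.4, 74.6 and 71.9 CPM with the siRNA and 26.8, 28.8 and 30.3 CPM in control (log2 fold change -1.05, SE 0.06, adjusted p = 6.5e-12). Mcm3 (chromosome 1, 20802968 to 20820312, minus strand), a subunit of the replicative helicase, had the smallest p of the replication list, while Mcm5 fell furthest, 2.07-fold. Mcm3 had 145, 154 and 159 CPM in proliferation, 76.4, 74.2 and 75.8 CPM with the siRNA and 44.3, 43.6 and 46.4 CPM in control (-1.02, SE 0.05, adjusted p = 1.03e-13). None of the 3 groups overlapped for either gene. Promoter windows of both are shown because these lists moved as a block, with letters of 3 known cell cycle elements in capitals: the CHR (TTTGAA), E2F sites (TTTCCCGC, TTTCGCGC, TTTGCCGC or TTTGGCGC) and CCAAT boxes, on either strand. They come from RefSeq on GRCm38.p6, at chr5:45669675-45669974 on the plus strand and chr1:20820263-20820562 on the minus strand.
Ncapg: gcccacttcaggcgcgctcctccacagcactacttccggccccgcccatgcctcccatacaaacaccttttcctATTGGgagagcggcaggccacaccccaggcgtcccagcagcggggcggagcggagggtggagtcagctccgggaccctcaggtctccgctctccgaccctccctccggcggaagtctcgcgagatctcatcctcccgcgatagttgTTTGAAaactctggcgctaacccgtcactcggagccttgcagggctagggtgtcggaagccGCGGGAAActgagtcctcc
Mcm3: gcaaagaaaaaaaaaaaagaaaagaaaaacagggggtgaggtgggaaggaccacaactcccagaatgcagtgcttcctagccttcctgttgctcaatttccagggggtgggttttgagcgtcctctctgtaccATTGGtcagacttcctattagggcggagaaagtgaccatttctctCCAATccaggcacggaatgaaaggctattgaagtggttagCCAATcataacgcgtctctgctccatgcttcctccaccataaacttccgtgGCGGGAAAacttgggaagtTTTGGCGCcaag
The Ncapg window held 1 match of each element. In the Mcm3 window there were 2 E2F and 3 CCAAT matches. CHR letters occurred in 77.8% of 36 mitosis windows (33 of 40 genes matched), in 11.9% of 42 replication windows (35 of 45 genes) and in 17.9% of all windows of the table (12% of windows of genes tested). For the E2F letters the shares were 8.33%, 33.3% and 2.26% (3.69% of windows of genes tested), and for CCAAT they were 77.8%, 59.5% and 37.4% (37.9%). CCAAT letters were not particular to these lists, at 85% for endoplasmic reticulum chaperones, 76.9% for cholesterol synthesis and 72.7% for MHC class I presentation.

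The other leading replication genes were Mcm2, down 1.94-fold to 71.0 ± 4.0 CPM, Mcm5, down 2.07-fold to 55.7 ± 0.803 CPM, and Gins1, a partner of that helicase, down 2.05-fold to 8.69 ± 0.658 CPM. Cyclins, inhibitors and the Rb family did not share a direction. Of 20 such genes, 7 were higher, 8 lower and 5 without a call (median -0.08). Ccnd1, the growth factor-induced D cyclin, fell from 260.1, 304 and 293 CPM to 108, 119 and 116 CPM and lay at 59.3, 66.1 and 63.3 CPM in control, the largest fall of the list (-1.32, SE 0.06, adjusted p = 5.68e-14).

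Ccnd2 and Ccnd3 encode the cyclins described as Fbxl2 substrates, and RNA levels do not measure those proteins. Ccnd2 had 117, 99.9 and 104 CPM in proliferation and 61.9, 60.8 and 62.3 CPM with the siRNA, a 1.74-fold fall, with 47.4, 49.0 and 47.6 CPM in control. Ccnd3, the D cyclin of differentiating muscle, had 135, 127 and 139.5 CPM in proliferation and 207, 197 and 222 CPM with the siRNA, a 1.56-fold rise, with 282, 287 and 274 CPM in control. Both genes sat between the other groups, in opposite directions. Cdkn1a, the gene of the CDK inhibitor p21 that rises at cell cycle exit, went from 251 ± 8.45 to 332 ± 16 CPM (0.40, adjusted p = 2.7e-07) beside 522 ± 18.5 CPM in control. Cdkn1c, for the inhibitor p57, moved from 1.19 ± 0.121 to 1.85 ± 0.131 CPM (0.64, adjusted p = 0.00316), while control reached 6.57 ± 0.709 CPM. No call was made for Cdk6 (0.01), Cdkn1b (-0.07), E2f3 (-0.12), E2f8 (-0.10) and Rb1 (-0.07).

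**Figure D2:**
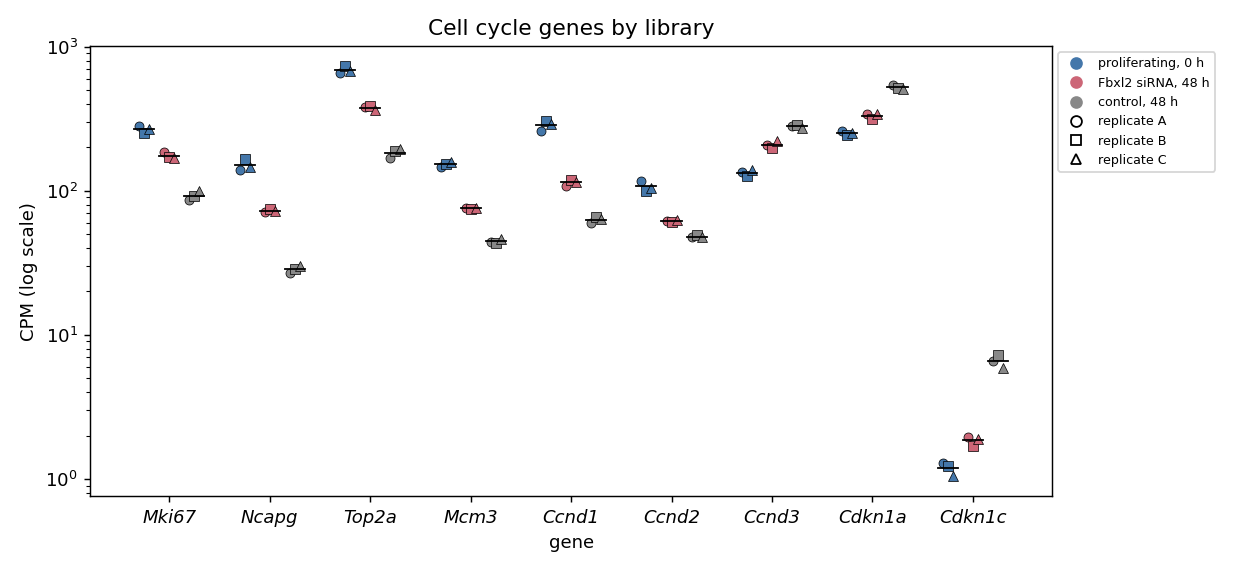
Levels of 9 cell cycle genes in each library, in CPM on a log scale, for proliferating cells (blue), Fbxl2 siRNA (red) and control (grey), with the group mean as a bar and the replicate letter as the marker shape. For every gene plotted the siRNA libraries lie between the proliferating and the control libraries, as for Ncapg with means of 150.4, 72.7 and 28.6 CPM.

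Interferon-stimulated genes had the highest median of all lists with more than 1 gene tested. All 51 tested were higher with the siRNA than in proliferating cells, 49 of them also against a fold of 1.5, with a median log2 fold change of 4.35 that did not move when 2 genes at 0 counts were set at their bounds. In control, 49 were higher and 1 lower, with a median of 3.33. Compared directly, 48 of the 51 were higher with the siRNA than in control, with a median difference of 0.85. Their summed level was 709 to 740 CPM in proliferating cells, 3233 to 3572 CPM with the siRNA and 1983 to 2260 CPM in control, with no overlap.

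The 2'-5' oligoadenylate synthetases, which sense double-stranded RNA, led the rises. Oas2 (chromosome 5, 120730333 to 120749853, minus strand) had no count in any proliferating library, 74.7, 65.7 and 71.9 CPM with the siRNA and 17.1, 23.2 and 23.1 CPM in control. It was at least 636-fold higher than in proliferation, by the same floor (adjusted p = 4.84e-07) and 3.36-fold higher than in control (adjusted p = 7.84e-05). Oas1g also had no count in proliferation and 10.7, 9.70 and 8.74 CPM with the siRNA, at least 87.4-fold higher. Oas1a rose from 0.123 ± 0.0455 to 34.8 ± 2.34 CPM, with 11 counts in all over the proliferating libraries, so that its fold is uncertain. Oas1 genes are close copies, and reads shared among them could be divided between their rows.

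Oas3 was among the genes farthest above both other groups. It had 0.329, 0.112 and 0.0329 CPM in proliferation, 29.4, 25.5 and 29.1 CPM with the siRNA and 2.28, 3.52 and 3.27 CPM in control, 9.35-fold above the latter (adjusted p = 2.73e-07). Usp18, which limits interferon signalling, rose from 0.156 ± 0.0968 to 40.8 ± 2.69 CPM, and the GTPase gene Iigp1 from 0.104 ± 0.0419 to 25.8 ± 3.42 CPM. Their control levels were 16.5 ± 2.29 and 16.9 ± 3.71 CPM. Samd9l, an antiviral factor, had the smallest p of the list and rose 11.8-fold to 94.7 ± 5.26 CPM, beside 55.0 ± 1.59 CPM in control. Parp9 rose 7.43-fold.

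Gbp2 (chromosome 3, 142620602 to 142638008, plus strand), a guanylate-binding GTPase, had 4.41, 3.87 and 4.83 CPM in proliferation, 61.5, 53.9 and 53.6 CPM with the siRNA and 43.5, 45.4 and 46.2 CPM in control, a 12.8-fold rise (SE 0.08 on the log2 scale, adjusted p = 2.32e-18). All 3 siRNA libraries were above all proliferating and control libraries. Its RefSeq window (chr3:142620413-142620712, plus strand, GRCm38.p6) is shown because interferon response elements are known from such promoters, with the letters TTTC, 2 bases of any kind and TTTC again in capitals.
Gbp2: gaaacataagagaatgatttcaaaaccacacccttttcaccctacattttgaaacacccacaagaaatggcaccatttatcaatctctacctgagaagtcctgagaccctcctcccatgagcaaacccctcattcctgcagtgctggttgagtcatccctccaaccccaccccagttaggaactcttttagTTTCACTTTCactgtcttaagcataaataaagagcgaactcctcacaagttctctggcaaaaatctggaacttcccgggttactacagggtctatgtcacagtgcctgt
On either strand these letters occurred in 53.5% of 43 windows of the list (37 of 51 genes matched), in 22.7% of 22 windows of the MHC class I list, and in 3.44% of all windows of the table (3.11% of windows of genes tested).

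Genes of MHC class I presentation, the display of cell peptides to T cells, rose together. Of 24 tested, 22 were higher and 1 lower, with a median of 1.83, against 1.16 in control, and 22 were higher with the siRNA than in control. H2-K1, a class I heavy chain, had 122, 114 and 120.3 CPM in proliferation, 595, 574 and 615 CPM with the siRNA and 352, 403 and 395 CPM in control, a 5.01-fold rise (adjusted p = 1.25e-17). B2m, the light chain, rose 3.62-fold to 1276 ± 43.8 CPM and H2-T23 3.91-fold to 105 ± 2.44 CPM. The immunoproteasome gene Psmb8 went from 0.228 ± 0.0332 to 15.4 ± 1.40 CPM and Psmb9 from 0.122 ± 0.0734 to 2.88 ± 0.425 CPM, both with 20 counts or fewer over the proliferating libraries. Canx, a general chaperone, was the lower member (-0.16), chosen after the fact, and Pdia3 (-0.06) made no call. The lower count was 0 without proliferation replicate B and 2 without proliferation replicate A. Class I heavy chain genes are near-identical in places, and their single values carry that uncertainty.

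Markers of blood and vessel cells were low beside these rises. Of 10 macrophage and leukocyte markers, 8 were under 1 CPM in both groups, among them Ptprc and Itgam, and Adgre1 had no count. Their summed level was 14.5 to 15.4 CPM in proliferating cells and 14.1 to 16.6 CPM with the siRNA, nearly all of it from Cd14, at 13.4 and 13.9 CPM on average. Of the 4 tested, edgeR called 0 at an adjusted p under 0.05 and 2 at an unadjusted p under 0.05, Csf1r and Lyz2. 1 was called higher with DESeq2, with the replicate letter as a block, and without siRNA replicate C, proliferation replicate A or proliferation replicate B. Of 8 endothelial markers, 7 were under 1 CPM in both groups, and Tie1, Erg and Emcn had no count. Tek, the remaining one, rose from 0.411 ± 0.115 to 1.92 ± 0.403 CPM.

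NF-kB targets and inflammatory genes did not move as a block. Of 40 tested, 18 were higher, 11 lower and 11 without a call, with a median of 0.22, or 0.06 when 2 genes at 0 counts in proliferation were set at their bounds. The chemokine gene Ccl5 rose from 0.359 ± 0.135 to 10.1 ± 0.770 CPM, beside 5.53 ± 0.331 CPM in control, while Cxcl5 fell from 13.3 ± 0.409 to 3.54 ± 0.482 CPM. Irf1, a transcription factor induced by interferon as well as by NF-kB, rose 1.81-fold. Nfkbia, the feedback inhibitor of NF-kB, made no call, with 21.1 ± 0.547 CPM before and 22.2 ± 1.40 CPM after (adjusted p = 0.3). Icam1 had no count in proliferation and 6 counts in all with the siRNA, so no fold is given. Its call ended without siRNA replicate C (adjusted p = 0.117) or proliferation replicate C (adjusted p = 0.0591).

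Most amino acid stress genes fell. Of 35 genes of serine synthesis and targets of the transcription factor ATF4, 28 were lower and 2 higher, with a median of -1.02, against -1.31 in control, and 25 of the falls were also called against a fold of 1.5. Their summed level lay between 5277 and 6808 CPM in proliferation, between 2846 and 3034 CPM with the siRNA and between 2242 and 2342 CPM in control. Compared directly, 18 of the 35 were higher with the siRNA than in control and 3 were lower, with a median difference of 0.26. Chac1, which degrades glutathione, had 115, 65.6 and 79.3 CPM in proliferation, 12, 12.9 and 12 CPM with the siRNA and 11.7, 10.0 and 10.2 CPM in control. The proliferating libraries were far apart from each other, with A highest, and yet all were above the rest. Its log2 fold change was -2.81 (SE 0.20, adjusted p = 1.32e-06), and no call was made between siRNA and control (0.21, SE 0.23, adjusted p = 0.47).

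The window of Chac1 is shown because its list holds known ATF4 targets (chr2:119350992-119351291, plus strand, RefSeq on GRCm38.p6), with the amino acid response letters TGATGNAA, here on the opposite strand, in capitals.
Chac1: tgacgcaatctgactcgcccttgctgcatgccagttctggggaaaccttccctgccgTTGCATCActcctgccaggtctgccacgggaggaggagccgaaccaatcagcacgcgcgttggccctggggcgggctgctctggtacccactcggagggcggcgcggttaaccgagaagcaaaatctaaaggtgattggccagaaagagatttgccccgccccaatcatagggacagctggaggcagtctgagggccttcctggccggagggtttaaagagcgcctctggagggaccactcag
On either strand these letters occurred in 29.4% of 34 windows of the list (28 of 35 genes matched), beside 3.97% of all windows of the table and 2.29% of windows of genes tested.

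Trib3, a pseudokinase gene of the same response, had 95.6, 40.5 and 58.0 CPM in proliferation and 11.5, 12.4 and 12.1 CPM with the siRNA, with 4.55, 4.91 and 4.64 CPM in control. Psat1 and Psph, enzymes of serine synthesis, fell 2.61-fold to 199 ± 14.6 CPM and 2.85-fold to 25.9 ± 3.16 CPM, and both remained above control, at 104 ± 5.96 and 14.9 ± 0.213 CPM. The secreted hormone gene Stc2 fell 5.65-fold to 2.24 ± 0.292 CPM and lay below its control level of 4.32 ± 1.03 CPM (adjusted p = 2.1e-05). The higher members were Atf5 (0.49) and the hormone gene Fgf21 (1.01), named after their values were seen, and Ddit3 (-0.51), Nupr1 (0.08), Pycr1 (-0.17), Slc7a3 (-0.41) and Vldlr (-0.11) made no call.

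Chaperones of the endoplasmic reticulum were mixed, with 3 of 23 higher, 10 lower and a median of -0.12. Herpud1, of protein disposal, fell 2.10-fold to 36.1 ± 0.415 CPM, below its control level of 67.4 ± 3.48 CPM (adjusted p = 7.12e-07). Edem1 fell 1.56-fold, and the chaperone gene Dnajb9 rose 1.57-fold. The number of lower members was 6 without proliferation replicate B and 13 without proliferation replicate A. Calr (0.14) and Sel1l (0.21), the other higher members, were chosen after the fact. For Myc and ribosome biogenesis, 29 of 32 genes fell and 1 rose, Max (0.17), with a median of -0.36 against -0.53 in control. Their falls were small, the largest being -0.69 on the log2 scale, for Dkc1. The nucleolar genes Nop56, Dkc1 and Fbl had log2 fold changes of -0.66, -0.69 and -0.56.

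Insulin-like growth factors rose. Igf2 (chromosome 7, 142650766 to 142666816, minus strand), an autocrine driver of differentiation, had 1.74, 1.41 and 1.64 CPM in proliferation, 35.8, 31.0 and 41.7 CPM with the siRNA and 94.5, 71.7 and 67.1 CPM in control, a 22.4-fold rise (adjusted p = 5.71e-08) that stopped short of control (adjusted p = 7.03e-05). Igf1 rose 11-fold to 12.5 ± 0.277 CPM, beside 45.6 ± 4.99 CPM in control, and H19, the noncoding RNA next to Igf2, 3.03-fold to 2088 ± 279 CPM. Of 18 genes of this system, 10 were higher and 3 lower (median 0.39). The binding protein gene Igfbp3 reached 24.6 ± 0.756 CPM with the siRNA and 25.7 ± 0.357 CPM in control, from 5.75 ± 0.264 CPM. Igfbp2 fell from 722 ± 7.23 to 284 ± 9.84 CPM, below control at 479 ± 13.8 CPM (adjusted p = 1.08e-11). Igfbp5 (-0.29) and the protease gene Pappa (-0.57), the other lower members, were added after the fact.

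Among 29 genes of TGF-beta, BMP and Id proteins, 10 were higher and 11 lower (median -0.06), but 21 were lower with the siRNA than in control and 1 higher. Id3, an inhibitor of MyoD-type factors, had 62.1, 63.0 and 64.4 CPM in proliferation, 17.4, 16.2 and 15.7 CPM with the siRNA and 53.4, 56.5 and 50.6 CPM in control. The siRNA libraries thus lay well below both other groups, which were close to each other (-1.94, SE 0.06, adjusted p = 7.78e-16 over proliferation, and -1.70, adjusted p = 1.96e-14 over control). Id1 was also lower than in both, at 23.9 ± 0.964, 11.2 ± 0.534 and 15.7 ± 0.502 CPM in the same order. The BMP antagonist gene Grem1 fell 3.6-fold. Fst, the follistatin gene, and Bmp4 rose 7.22-fold and 3.93-fold, to 7.98 ± 2.35 and 5.48 ± 0.247 CPM, below 32.7 ± 6.23 and 23.5 ± 1.13 CPM in control.

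In the extracellular matrix list, 34 of 52 genes rose and 6 fell, for a median of 0.64 beside 1.29 in control. Cilp, a cartilage matrix gene, had 0.263, 0.149 and 0.296 CPM in proliferation, 49.6, 38.2 and 48.5 CPM with the siRNA and 163, 150.5 and 141 CPM in control, a 186-fold rise from 21 counts in all. Dcn, the decorin gene, rose 13.4-fold to 394 ± 36.1 CPM, close below its control level of 488 ± 16.1 CPM (adjusted p = 0.00195). The collagen gene Col3a1 rose from 3032 ± 333 to 8189.9 ± 302 CPM and exceeded control at 5964 ± 18.3 CPM (adjusted p = 1.92e-06). Spp1, for osteopontin, fell 3.24-fold, from 7233 ± 209 to 2235 ± 99.2 CPM, with 1133 ± 30.5 CPM in control.

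Signalling lists further from muscle structure were mixed. In the Notch pathway 7 of 15 genes were higher and 5 lower. The ligand gene Dll1 rose 4.35-fold to 17.0 ± 2.47 CPM, with 35.4 ± 1.49 CPM in control, and Rbpj, its nuclear effector, was lower (-0.45). Nrarp was called lower at -1.13, but not without siRNA replicate B (adjusted p = 0.0769). Hes1, Jag2 and Notch1, at -0.25, -0.24 and -0.48, were the remaining lower members and were not picked by rule. Immediate early genes and feedback genes of ERK signalling had 20 of 33 members lower and 5 higher (median -0.28). The ERK phosphatase gene Dusp4 fell 1.90-fold, the transcription factor gene Etv4 1.82-fold and Atf3 2.23-fold, while the antagonists Spry1 and Spry2 rose 1.95-fold and 1.67-fold. Fos, Jun and Klf2, seen to be the other higher members, stood at 0.68, 0.28 and 0.26. Of 20 repressors of myogenesis, 9 rose and 5 fell, with Sox8 up 2.65-fold and Zeb1 up 1.56-fold, both short of control. Their lower members were Twist2 (-0.81) and Msx2 (-1.04) and, chosen after the fact, Ezh2 (-0.51), Sirt1 (-0.60) and Hdac5 (-0.20).

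Cholesterol synthesis genes were near their proliferating level. Of 31 tested, 7 were higher, 9 lower and 15 without a call (median 0.03), whereas control had 27 lower and 1 higher (median -0.51), and 26 were higher with the siRNA than in control and 1 lower. The number higher over proliferation was 4 without proliferation replicate A and 12 without proliferation replicate B. Log2 fold changes over proliferation in this list ranged from -1.24 to 0.39, and 1 member was called lower by at least 2-fold. The desaturase gene Scd2 fell 1.58-fold. Among 24 atrophy and autophagy genes, 11 rose and 5 fell. Trim63 and Fbxo32, the muscle ubiquitin ligases MuRF1 and atrogin-1, rose 9.77-fold and 2.57-fold, to 3.39 ± 0.532 and 156 ± 12.9 CPM, with 9.18 ± 1.53 and 146 ± 4.11 CPM in control. Map1lc3a, of autophagosomes, rose 2.65-fold. The lower members of that list, named after the fact, were Bnip3l, Cblb, Sqstm1, Tfe3 and Tfeb, between -0.43 and -0.14. Of 32 cell death genes, 13 rose and 8 fell. The inflammatory caspase genes Casp1 and Casp4 rose 5.18-fold and 4.79-fold and exceeded control 1.83-fold and 2.35-fold, while Casp12 rose 3.0-fold to 170.3 ± 6.25 CPM, close to control at 186 ± 2.23 CPM. Targets of p53 had 9 of 27 higher and 9 lower, with Gadd45a up 2.04-fold and Sesn2, also an ATF4 target, down 3.49-fold. Of 30 genes of the SCF core, other F-box proteins and reported Fbxl2 substrates, 11 were higher and 10 lower (median 0.03), a share of calls of 70.0% beside 62.0% of all genes.

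**Figure D3:**
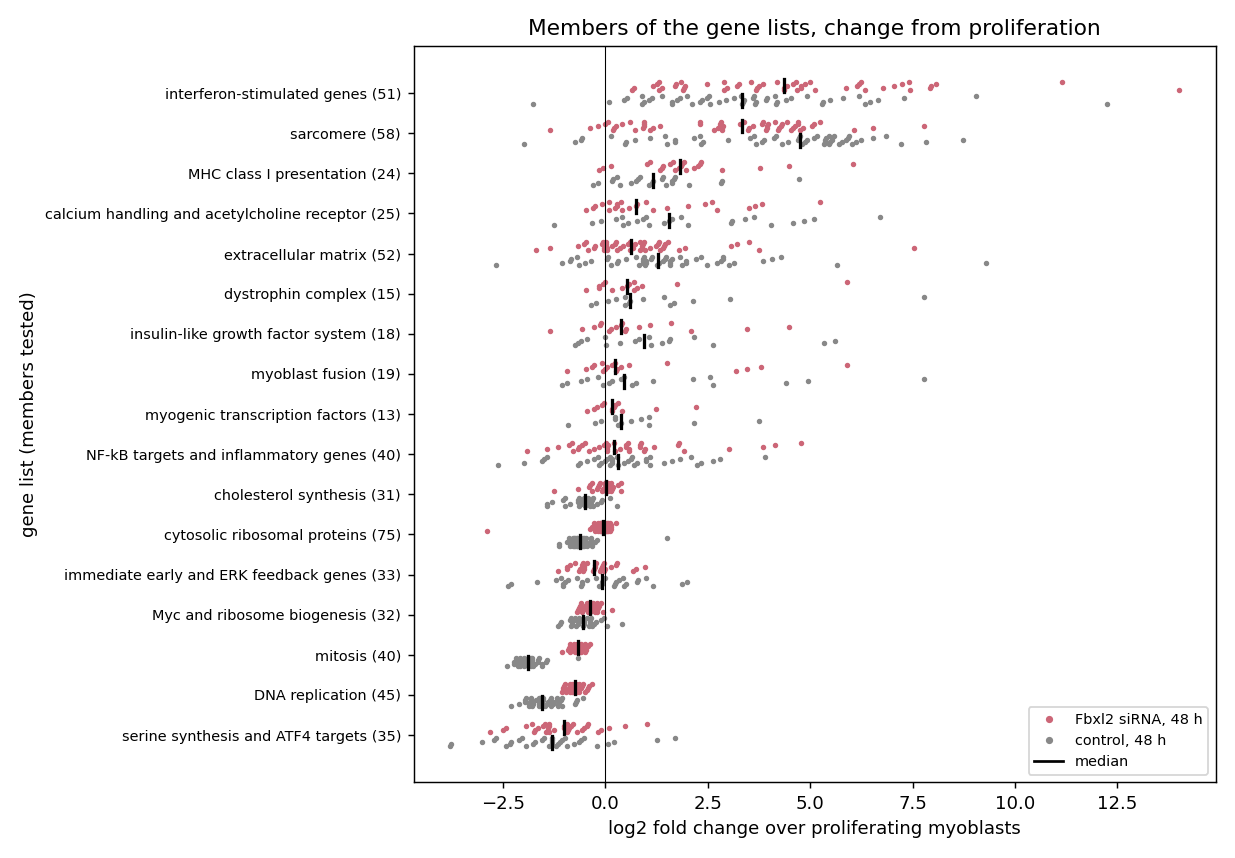
Log2 fold changes over proliferating myoblasts of the members of 17 gene lists, with Fbxl2 siRNA in red, control in grey and medians as black bars, and the number of members tested in parentheses. Both sets of points use the same 3 proliferating libraries, and the largest values of the interferon list belong to genes with no count in proliferation, whose fitted fold is no bound. The siRNA median is 4.35 for interferon-stimulated genes, 3.34 for the sarcomere and -0.66 for mitosis, beside 3.33, 4.74 and -1.90 in control.

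2 gene families that were lower in control cells lay near their proliferating level. Cytosolic ribosomal protein genes, the building blocks of ribosomes, summed to 43954 to 46983 CPM in proliferation, 41230 to 47182 CPM with the siRNA and 28510 to 29224 CPM in control. Of 75 tested, 4 were higher, 15 lower and 56 without a call over proliferation, a share of calls of 25.3%, and 73 were lower in control. All 73 that were called between siRNA and control were higher with the siRNA. The lower count depended on 1 library, with 32 lower without siRNA replicate B and 8 without siRNA replicate A or C, and the higher count was 8 without proliferation replicate B and 1 without siRNA replicate B, proliferation replicate A or proliferation replicate C. Rps2 fell from 187 ± 9.54 to 145 ± 5.42 CPM, with 85.5 ± 2.28 CPM in control, and Rpl19 from 1032 ± 25.2 to 848 ± 41.1 CPM, with 683 ± 10.7 CPM. Rps27 rose to 426 ± 18.3 CPM from 354 ± 7.92 CPM. Rpl17 (0.14), Rpl22 (0.14) and Rpl23 (0.15) were the other higher members, chosen for that. Ribosomal protein genes have many processed copies, so their single values are uncertain.

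The proliferins, prolactin-like hormones of placenta and growing cells, differed more sharply. Prl2c3 (chromosome 13, 12790816 to 12800079, minus strand) had 418, 542 and 515 CPM in proliferation, 292, 392 and 328 CPM with the siRNA and 3.18, 3.20 and 3.56 CPM in control. The siRNA libraries were all below the proliferating ones, a log2 change of -0.54 (SE 0.13, adjusted p = 0.00524), and were 102-fold above control (adjusted p = 9.02e-10). Prl2c2 and Prl2c5 made no call over proliferation, at -0.19 (adjusted p = 0.227) and -0.17 (adjusted p = 0.285), and their control changes were -6.75 and -5.18. Without siRNA replicate B all 3 were called lower, and with the replicate letter as a block 2 were. The family of 7 genes in the table summed to 577 to 744 CPM in proliferation, 428 to 588 CPM with the siRNA and 4.91 to 5.39 CPM in control. These copies are near-identical, so the sum is firmer than any member.

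**Figure D4:**
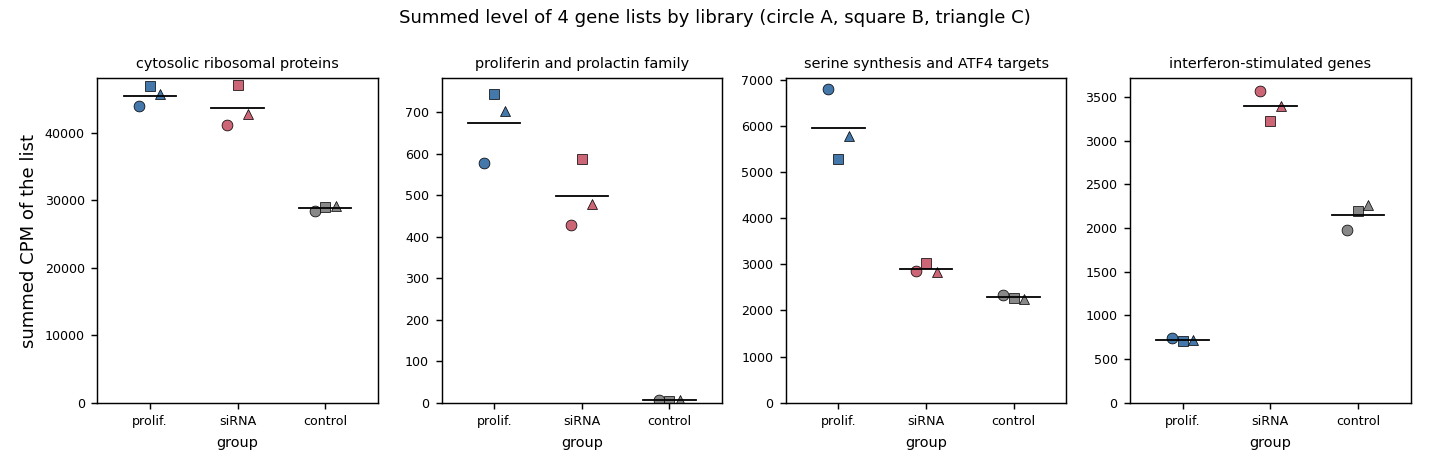
Summed levels of 4 gene lists in each library in CPM on linear axes from 0, for proliferating, Fbxl2 siRNA and control libraries, with the mean as a bar and the replicate letter as the marker shape. Ribosomal protein and proliferin sums of the siRNA libraries overlap or neighbour those of proliferation. ATF4 target sums lie above control without overlap, and nearer to control than to proliferation. Interferon-stimulated sums exceed both other groups, at 3233 to 3572 CPM.

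A further 5 genes were called in control over proliferation with an absolute log2 fold change of at least 2 and had a change with the siRNA nearest to 0, which chose them. Fbln7, a matrix gene, had 2.20, 1.86 and 1.61 CPM in proliferation, 2.17, 1.19 and 2.00 CPM with the siRNA and 25.3, 28.1 and 28.6 CPM in control. Tspan8, Mgll, Mctp2 and Add2 completed the 5, with mean levels of 0.868 and 0.923 CPM, 2.29 and 2.17 CPM, 10.9 and 10.8 CPM, and 36.0 and 35.6 CPM in proliferation and with the siRNA. Their control levels were 8.29, 12.8, 1.49 and 8.81 CPM. As members picked for that pattern, they are given as a description with no test.

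Other genes, ranked by their distance above or below both groups, are likewise a description. Hdc, for the enzyme that makes histamine, had 8.22, 6.37 and 8.12 CPM in proliferation, 38.5, 45.8 and 40.7 CPM with the siRNA and 2.34, 2.16 and 2.09 CPM in control, 5.48-fold above proliferation and 18.9-fold above control. Cldn1, a tight junction gene, had 1.22, 0.782 and 0.987 CPM in proliferation, 17.4, 17.1 and 19.9 CPM with the siRNA and 4.28, 5.09 and 4.10 CPM in control. Plac8 rose from 2.00 ± 0.137 to 12.5 ± 0.855 CPM and stood at 2.09 ± 0.197 CPM in control. The epidermal envelope gene Sprr2k rose 4.66-fold, to 5.11 ± 0.271 CPM.

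The genes farthest below both groups were Fgf7, Mcam, Id3, Cxadr, Tinagl1 and Npr3. Fgf7 (chromosome 2, 126034658 to 126091185, plus strand), a growth factor for epithelial cells, had 10.6, 9.72 and 11.7 CPM in proliferation, 1.95, 1.84 and 1.59 CPM with the siRNA and 6.29, 5.92 and 6.08 CPM in control. It was 5.93-fold below proliferation and 3.39-fold below control. The adhesion gene Mcam went from 5.36 ± 0.205 to 1.63 ± 0.255 CPM with 7.70 ± 0.163 CPM in control, and Cxadr, the coxsackievirus and adenovirus receptor, from 13.7 ± 0.491 to 4.85 ± 0.148 CPM beside 12.2 ± 0.402 CPM. Tinagl1 and Npr3 fell 2.34-fold and 2.32-fold. Among the largest falls over proliferation as a whole were Ngfr, the low-affinity neurotrophin receptor gene, from 10.4 ± 0.777 to 0.599 ± 0.108 CPM with 0.168 ± 0.0360 CPM in control, and the transporter gene Slco4a1, from 12.9 ± 2.15 to 2.33 ± 0.128 CPM with 0.485 ± 0.172 CPM.

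**Figure D5:**
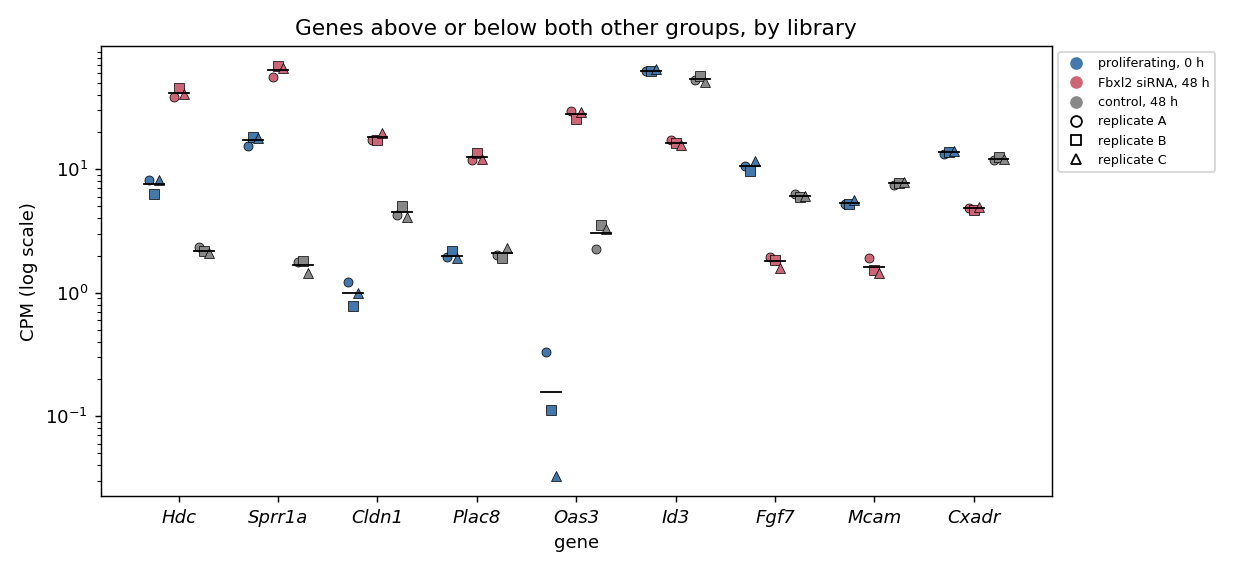
Levels of 9 genes for which the siRNA libraries (red) lie above or below both proliferating (blue) and control (grey) libraries, in CPM on a log scale, with the group mean as a bar and the replicate letter as the marker shape. No red point overlaps a blue or grey one, for instance at 41.7 CPM for Hdc and 16.4 CPM for Id3 on average.

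Markers of other lineages moved in both directions. Of 8 smooth muscle genes, 7 rose and 1 fell, Cnn1 (-0.63, chosen after the fact), with a median of 0.96 and 2.28 in control. Acta2, the smooth muscle actin that myoblasts also express, rose 2.99-fold to 1697 ± 62.6 CPM, Tagln 2.02-fold and Lmod1 3.70-fold, all below control. Fibroblast markers had 7 of 10 higher and 2 lower, for a median of 1.32 beside 0.88 in control, summing to 1028 to 1239 CPM in proliferation and 2661 to 2774 CPM with the siRNA, with 3421 to 3534 CPM in control. Dpt, Lum and Ly6a rose 4.48-fold, 11.4-fold and 2.52-fold, and exceeded control with adjusted p of 1.99e-09, 0.00285 and 1.27e-08. Lum had 14 counts in all over the proliferating libraries, so that its fold is uncertain. Over control, 4 of the 10 were higher and 5 lower (median -0.10), among the latter, and named after their values were seen, Col1a1 at 1215 ± 44.8 beside 1813 ± 30.1 CPM and Postn at 106 ± 4.66 beside 267 ± 10.7 CPM. The lower members were Twist2 and, seen afterwards, Pdgfrb (-0.41). Of 17 satellite and reserve cell markers, 13 rose and 3 fell, with Fgfr4 up 3.30-fold, Cxcr4 up 1.97-fold and Megf10 down 2.26-fold to 91.4 ± 9.25 CPM, below 226 ± 2.49 CPM in control. Rbl2 and Sdc4 were the other lower members, at -0.32 and -0.20, and were not named by rule. Osteoblast and chondrocyte markers had 4 of 7 lower, Spp1, Phex (-0.54), Dmp1 (-0.92) and, outside the rule, Runx2 (-0.37), and of 13 in the table, 8 were under 1 CPM in both groups. Adipocyte markers had 2 of 4 lower, Lpl (-0.41) and Pparg (-0.52), and neural markers 2 higher, among them Map2 (0.46), and 2 lower, Ngfr and, seen afterwards, Tubb3 (-0.17), of 4. Without siRNA replicate A or C, or proliferation replicate B or C, 1 neural marker was lower. Whether a change in the mix of cells contributed to these values was not tested.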

How the data were processed

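The table the authors deposited holds raw counts, 1 row per gene symbol, for 12 libraries in 4 groups, and states no strand setting. The submitters' processing notes name mm10, CASAVA and DESeq2, without roles or versions. The counts were tested with edgeR 4.0.16 in R 4.3.3: genes passing filterByExpr were scaled by TMM, fitted over all 12 libraries with 1 mean per group (glmQLFit, robust, 8 residual degrees of freedom) and tested with glmQLFTest, with Benjamini-Hochberg adjustment over 12736 genes. Pooling all 4 groups lets them share 1 estimate of spread. The TNF libraries thus entered the filter, the scaling and the estimate of spread, and no contrast with TNF was tested. Standard errors are approximate, from the fold change and the square root of F. The procedure was tested on simulated data. 3 deposited tables of the authors' own comparisons were not used. The one named for proliferation holds TNF over proliferation.

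The members and lists were chosen with earlier results of these data known. Genes were named by rule: a preset list of 22, the 6 largest rises and falls with at least 5 CPM in a group, in each list the 3 with the smallest p and the 2 with the largest change, the 6 farthest above and below both other groups, and 5 each of opposite sign and nearest to 0. A few genes that the rule names are not reported here. Mymk and Mymx are listed as Tmem8c and Gm7325 in the table. Gene positions come from GENCODE M21 and promoter windows from RefSeq, both on GRCm38. The alternatives tried were DESeq2 1.42.0, its size factors, no filter, only the 6 libraries compared, a replicate block, a fold of 1.5 and leaving out each library. Counts were taken as independent reads, so the floor of 3 counts covers counting error only.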

Additional observations from a re-analysis of the deposited data

Results flagged for a closer look

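The 5 genes below are those named by rule among the genes that changed in opposite directions from proliferation to siRNA and from proliferation to control, both called by edgeR. They were chosen for the size of both changes, other genes also went opposite ways, and both changes share the proliferating libraries. The value given for each is the difference between the 2 log2 fold changes, which is the direct siRNA over control contrast.

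Sprr1a, a gene of the epidermal cornified envelope, had 15.6, 18.3 and 17.8 CPM in proliferation, 56.3, 68.2 and 66.6 CPM with the siRNA and 1.77, 1.81 and 1.44 CPM in control, a difference of 5.24. Hdc, which makes histamine, differed by 4.24, with a change of 2.46 to siRNA and -1.79 to control. Csn3, a casein gene, differed by 3.98, at 6.37 ± 0.185 CPM in proliferation, 13.1 ± 1.20 CPM with the siRNA and 0.822 ± 0.217 CPM in control. Cst6, for the protease inhibitor cystatin E/M, differed by 2.83, at 19.3 ± 0.476, 36.1 ± 5.23 and 5.08 ± 0.518 CPM in the same order.

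Crim1, a membrane protein gene that binds BMPs, went the other way, with a difference of -2.05. It had 19.1, 17.9 and 18.6 CPM in proliferation, 10.8, 8.41 and 10.1 CPM with the siRNA and 43.3, 39.4 and 38.2 CPM in control. For all 5 genes the 3 siRNA libraries lay outside the range of the other 6.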

How the results depend on the processing

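Calls depended most on the size of change asked for. Against a fold of 1.5 (glmTreat), siRNA over proliferation had 1660 calls (1143 higher and 517 lower), siRNA over control 1672 (870 and 802) and control over proliferation 3531 (1946 and 1585). Of 155 called genes among 162 named, 35 lost their call there. No called value of a named gene changed sign under any alternative run, and the signs of other genes were not compared. Some values near 0 that were not called did, such as Fbln7 (-0.26 to 0.14), Mctp2 (-0.21 to 0.10), Mgll (-0.20 to 0.02) and Add2 (-0.09 to 0.04) over proliferation and, over control, Nrarp (-0.10 to 0.76). With the replicate block (the letters A, B and C) siRNA over proliferation had 8054 calls, 4002 higher and 4052 lower. The letters are not stated to mark a shared culture or day, and same-letter deviations of siRNA and proliferating libraries correlated at 0.124, 0.115 and 0.0638, each library best with its own letter, as a hint from the data only. The control libraries did not show this pattern. Their same-letter correlations were -0.0098, -0.0359 and -0.0910 with the siRNA libraries and 0.0285, -0.0797 and 0.0174 with the proliferating libraries. DESeq2 gave 7610 calls, its size factors 7964, no filter 7923 and a fit of the 6 libraries alone 7227. Other than by glmTreat, 2 named genes lost their call over proliferation, Nrarp and Icam1. Size factors moved the median log2 fold change by -0.014.

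Leaving out 1 library gave 7306 (without siRNA replicate A) to 7906 calls, with 3631 to 3913 higher, 3628 to 3993 lower, 992 to 1095 higher and 293 to 314 lower by at least 2-fold. For siRNA over control the range was 7364 to 7852 (3919 to 4188 higher and 3404 to 3664 lower). For control over proliferation it was 9350 to 9785 (4623 to 4909 and 4691 to 4897). The main fit of siRNA over control had 4346 higher and 3796 lower calls. This order turned with DESeq2 size factors (3984 and 4140), DESeq2 (3793 and 3928) and no filter (3944 and 4150). It held with the replicate block (4386 and 3853) and the 6 libraries alone (4314 and 4252). Depth limits genes near the floor of 3 counts, such as Icam1, Myl2 and Mybpc2.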

Other observations

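RNA encoded by the mitochondrial genome, which codes for subunits of the respiratory chain, took 0.720% to 0.750% of all counts in proliferating libraries, 1.23% to 1.40% with the siRNA and 1.70% to 1.73% in control, without overlap of the 3 groups. Of 13 such genes tested, 11 were higher with the siRNA than in proliferation and 1 was lower by edgeR, beside 30.9% and 31.1% of all genes. mt-Co1, a subunit of cytochrome oxidase, rose from 1535 to 3583 CPM (log2 fold change 1.22), with 5173 CPM in control. mt-Nd3, a subunit of complex I, was the lower one at -0.51, chosen after its value was seen, and mt-Co3 made no call. The genes share 1 genome and long precursor transcripts, so they are not independent, and they were examined after the counts were seen.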
